A study of Homo sapiens with 4 samples.

Results

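The tubulin genes described here are 10 rows of the deposited tables, chosen by symbol from the 58302 genes listed: the alpha-tubulins TUBA1A, TUBA1B, TUBA1C and TUBA4A, the beta-tubulins TUBB, TUBB2A, TUBB3, TUBB4B and TUBB6, and the gamma-tubulin TUBG1. All 10 were found. RNA-seq libraries were made from polyA RNA of T24, a much used bladder carcinoma line. There were 2 libraries of T24 cells with the genotype IGF2BP3 knockout, made as a stable line with CRISPR/Cas9, and 2 of T24 cells with the genotype control. No other allele or agent is named for either group. The labels do not say whether the knockout is 1 clone or whether replicates were grown apart. The p-values thus measure only the spread between these samples, pooled over genes, and this spread may be technical. The comparison addresses how transcripts differ in T24 when IGF2BP3, a protein that binds messenger RNAs, is lost.

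Alpha- and beta-tubulin form the heterodimer from which microtubules are built, and gamma-tubulin sits in the ring complex that starts them. Vertebrates carry several alpha and beta genes, called isotypes, whose proteins differ most in their acidic carboxy-terminal tails, the part that motors and modifying enzymes read. Cells also tune tubulin transcripts by autoregulation: when free heterodimers are in excess, TTC5 binds a short amino-terminal motif of alpha- and beta-tubulin as it leaves the ribosome, and the messenger RNA being translated is degraded.

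The stretch behind that motif and the tail are shown. In the first, alpha and beta genes encode the same amino acids before codon 4, and the second is where the beta members differ most. Codon 4 is TGC in the alpha and ATC in the beta members, and TUBG1 has other codons after ATG. The first 30 bases of the coding sequence follow for 5 members, 5′ to 3′ on the coding strand, taken from GENCODE 29 transcripts (hg38), with the first 4 codons in capitals. TUBA1A and TUBA1C have the same 30 bases as TUBA1B.
TUBA1B: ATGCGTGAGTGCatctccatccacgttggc
TUBA4A: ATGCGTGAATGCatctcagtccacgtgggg
TUBB: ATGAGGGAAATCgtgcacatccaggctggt
TUBB6: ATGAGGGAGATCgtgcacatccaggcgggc
TUBG1: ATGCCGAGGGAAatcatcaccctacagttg

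The last 60 bases of the coding sequence, which spell the tail, follow for 4 beta members from the same source, with the stop codon in capitals.
TUBB: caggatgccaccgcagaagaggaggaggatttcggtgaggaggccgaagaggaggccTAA
TUBB3: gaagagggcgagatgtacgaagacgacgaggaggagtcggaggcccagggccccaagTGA
TUBB4B: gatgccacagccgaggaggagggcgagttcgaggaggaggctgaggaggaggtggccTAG
TUBB6: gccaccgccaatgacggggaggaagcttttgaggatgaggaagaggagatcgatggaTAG

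TUBA1A and TUBA1B were 97.2% identical over the whole coding sequence. The 6 pairs of alpha members were 84.44 to 97.2% identical over the coding sequence, the 10 pairs of beta members 80.91 to 87.73%, and alpha against beta members 53.37 to 55.8%. Over the last 60 bases, identity between beta members dropped to between 47.62 and 75.0%. TUBG1 was 94.69% identical to TUBG2, its neighbour on chromosome 17, which is not among the 10.

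Such likeness bears on how reads can be assigned, and so do genes on the other strand over a member's own exons. Words were searched on both strands, so antisense genes count as sharing them. Of the words of 50 bases in the longest annotated transcript of TUBB6, 99.05% occurred in no transcript of another gene in GENCODE 29, and for TUBB4B this was 88.37%. For TUBB it was 72.35%, for TUBA4A 71.88%, for TUBG1 69.72% and for TUBA1C 59.89%. TUBA1B had 52.43%, with 38.33% of its words also in the antisense gene AC011603.2, and TUBA1A had 48.18%. A gene on the other strand was also the top sharer for TUBB (AL662797.1, 17.17% of words), TUBA4A (STK16, 23.59%) and TUBA1C (AC125611.3, 19.95%). TUBB2A had 34.54%, with 60.35% of its words also in TUBB2B, and TUBB3 had 20.37%, with 79.63% also in AC092143.1, an annotated gene on the same strand whose exons cover 35.76% of the exonic bases of TUBB3. The values of TUBA1A, TUBA1B, TUBB2A and TUBB3 are therefore the least certain of the 10, and neither the read length nor the handling of reads that fit several genes is given in the sources used here.

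**Figure D1:**
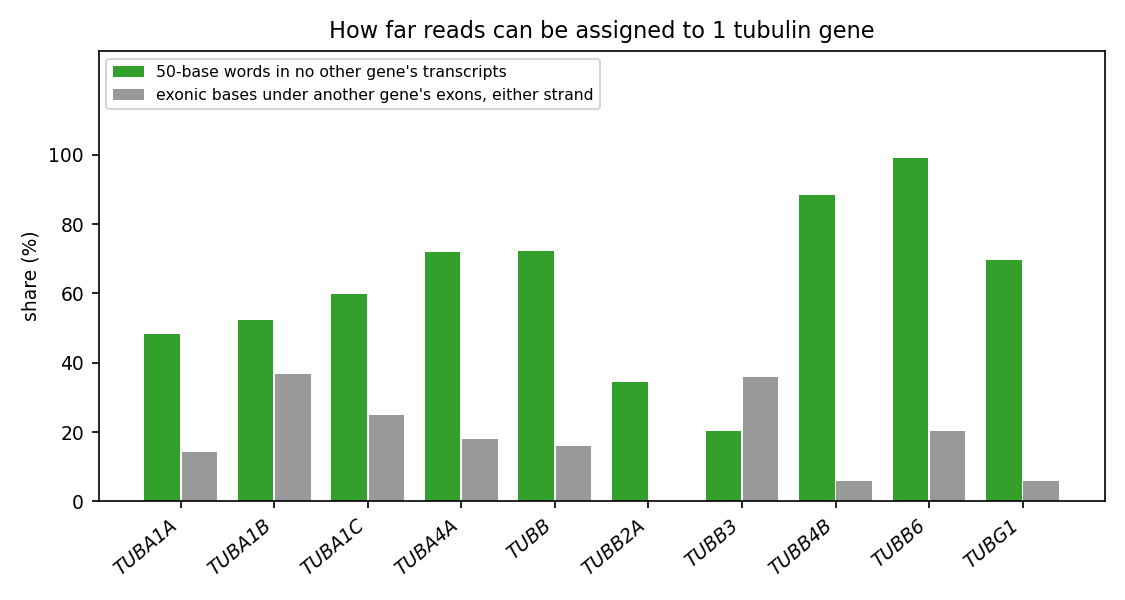
For each tubulin member, green bars give the share (%) of 50-base words of its longest transcript found in no other gene's transcripts on either strand. Grey bars give the share (%) of its exonic bases that lie under exons of another gene on either strand. TUBB6 (99.05%) and TUBB4B (88.37%) were the most distinct by words, and TUBB3 (20.37%) the least.

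Values are FPKM, a level per transcript length and per library, as the authors deposited them. Nearly all values (96.46 to 96.7% of genes above 0 in a library) are whole multiples of what 1 read is worth, which put the libraries at 811823 and 1240207 reads for knockouts 1 and 2 and at 2162179 and 1870884 reads for controls 1 and 2. The 10 tubulins held 4040 and 6024 recovered reads in the knockouts and 9367 and 9576 in the controls. Intervals below are exact 95% Poisson intervals on these reads and cover only counting error, because PCR copies of a molecule are counted as reads too. IGF2BP3 itself was listed at 0 in knockout 1 and had FPKM 0.190 in knockout 2, against 2.94 and 21.5 in controls 1 and 2, which goes with the labels, although its log2 fold change of −3.89 ± 2.83 (SE) did not pass (adjusted p = 0.955 in limma). Of 14 epithelial and urothelial markers, 4 reached FPKM 1 in some library (KRT7, KRT8, KRT18 and PPARG), and 8, the 4 uroplakins among them, were at 0 in all 4. Their summed FPKM was 1545 and 1163 in the knockouts and 439.7 and 582 in the controls, nearly all of it from KRT8 and KRT18. The 3 mesenchymal markers were also higher in sum in both knockouts (353 and 428) than in both controls (210 and 232). Most of that sum was VIM (267 and 372 in the knockouts against 177 and 172 in the controls). CDH2 overlapped between groups (19.9 and 1.49 in the knockouts against 0 and 11.5 in the controls). The 5 leukocyte markers were at 0 in all 4 libraries. The neuronal markers RBFOX3 and MAP2 were also at 0, while SYP had 32.0 in knockout 2 and the neuronal list summed to 0 and 32.0 in the knockouts against 0.185 and 3.39 in the controls. Fibroblast markers summed to FPKM of 0 and 6.73 in the knockouts against 14.9 and 0 in the controls. Muscle markers summed to 6.98 and 0 in the knockouts against 0.201 and 0 in the controls. Endothelial markers were at 0 except in control 2 (2.72). Markers of ciliated cells summed to 0.0788 and 1.34 in the knockouts against 0 and 0.821 in the controls. The part of these marker differences in the tubulin values was not tested.

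Summed over the 10 members, tubulin transcripts differed little between libraries, with FPKM of 1849 and 1903 in the knockouts against 1748 and 2023 in the controls. This was 0.510 and 0.532% of all FPKM in the knockouts against 0.489 and 0.554% in the controls, so the groups overlapped. TUBB had the highest FPKM of the 10 in both knockouts and in control 2, and TUBB4B in control 1, on the length of the longest annotated transcript. By the mean over 4 libraries the order was TUBB (615.9), TUBB4B (414), TUBA1B (329), TUBB6 (168), TUBG1 (153), TUBA1C (137), TUBA1A (44.1), TUBB2A (15.6), TUBB3 (5.01) and TUBA4A (listed at 0). Neighbours in this order overlapped in their ranges over libraries, except TUBA1C with TUBA1A and TUBB3 with TUBA4A. Among all genes above 0, TUBB ranked 49 and 50 in the knockouts and 67 and 44 in the controls.

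**Figure D2:**
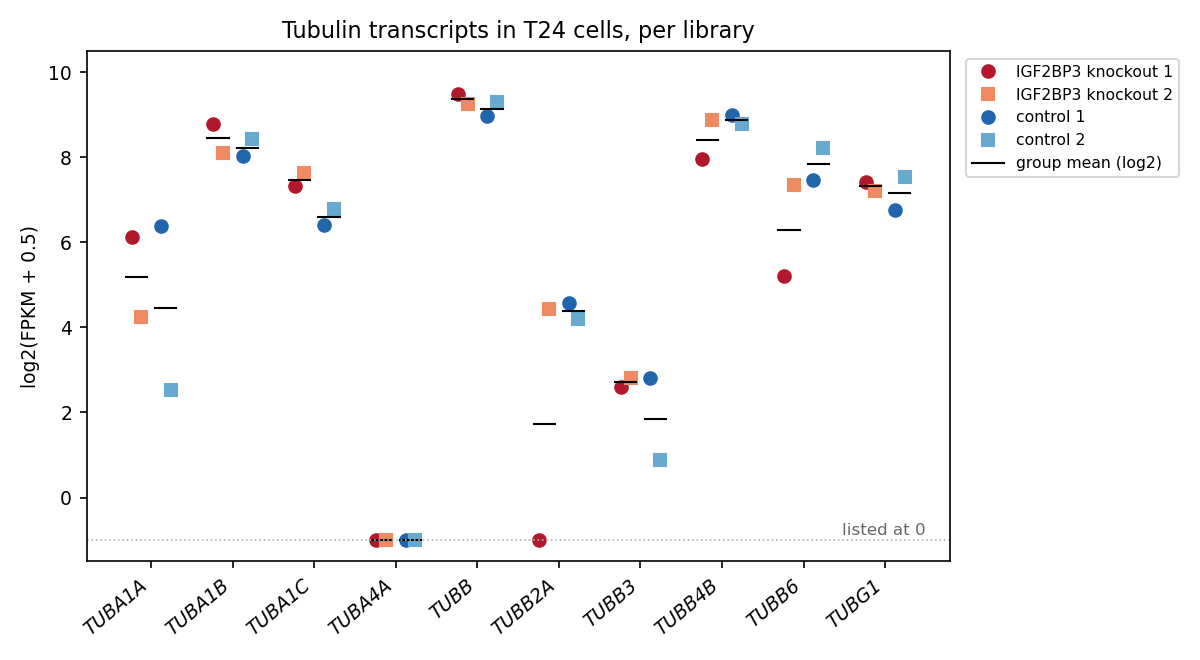
Each point is the level of 1 tubulin gene in 1 library as log2(FPKM + 0.5), with knockouts left of controls and the mean of each group on that scale as a bar. TUBB lay between FPKM 502 and 721 in every library, TUBA1C and TUBB6 were the members whose groups did not overlap, and TUBA4A was listed at 0 throughout.

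Of the 10 members, 9 had a mean FPKM of at least 1 and entered the fit over all genes (limma on log2(FPKM + 0.5), Benjamini-Hochberg adjusted over 11463 genes). Its SE and p-values draw on the spread of genes of like level (trend in eBayes), so they are not the replicate spread of 1 gene. Without that trend the SE was 1.38 for TUBB (0.40 with it), 1.52 for TUBB6 (0.67) and 1.85 for TUBA1A (1.19). Among the members it was narrower without the trend only for TUBB3 (1.49 against 2.47). None of the 9 passed an adjusted p of 0.05, and 1 (TUBB6) had an unadjusted p under 0.05 in limma. Limma-voom on the recovered reads also called none of the 9, with 0 at an unadjusted p under 0.05. The background is low by the same rule, with 10 genes or 0.0872% of all genes tested past the threshold and 3.91% at an unadjusted p under 0.05. Fitted log2 fold changes were above 0 for 6 members and below 0 for 3, with a median of 0.22, beside 48.2% of all genes above 0 and a median of −0.08. With 1 library left out, the members' median was 0.05 (knockout 1), 0.36 (knockout 2), 0.02 (control 1) or −0.11 (control 2). Both knockouts lay above both controls for 1 member, TUBA1C (12.1% of all genes do so), and below both for 1, TUBB6 (14.4% of all genes), shares near the background. With 2 libraries against 2, an exact two-sided permutation test of 1 value cannot go below p = 0.333, so no such test could pass.

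Among the alpha members, TUBA1C had the clearer separation and TUBA1B the higher level. The genes TUBA1A, TUBA1B and TUBA1C lie together on chromosome 12 of hg38, TUBA1B at 49127782 to 49131397 and TUBA1A at 49184796 to 49189324 on the minus strand, and TUBA1C at 49188736 to 49274603 on the plus strand. TUBA1C encodes 1 of the ubiquitous alpha-tubulins of dividing cells. Its FPKM was 158 (interval 143 to 175) in knockout 1 and 196 (182 to 211) in knockout 2, against 84.5 (77.5 to 91.8) in control 1 and 109.5 (101 to 119) in control 2. Both knockouts were above both controls, and the gap between groups was wider than the counting error of any library. Group means were 177 ± 26.7 in the knockouts and 97.0 ± 17.7 in the controls (SD, n = 2 each). The log2 fold change of 0.87 ± 0.67 (SE) did not pass (adjusted p = 0.955 in limma), and it lay between 0.68 and 1.06 with 1 library left out. Exons on the other strand, of TUBA1A and of the antisense gene AC125611.3, cover 24.96% of its exonic bases, and AC125611.3 had 0 reads in both knockouts against 0 and 14 in the controls.

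TUBA1B, the main ubiquitous alpha-tubulin of proliferating cells, had FPKM of 439 in knockout 1 and 273 in knockout 2, against 259 in control 1 and 343 in control 2. Knockout 1 was the highest and control 1 the lowest, and the groups overlapped. These values stand for 1141 and 1083 reads in the knockouts and 1789 and 2051 in the controls. Its log2 fold change was 0.22 ± 0.49 (SE; adjusted p = 0.982 in limma), and −0.13 without knockout 1. AC011603.2, an antisense gene whose exons cover 36.63% of the exonic bases of TUBA1B, had 133 and 45 reads in the knockouts against 87 and 50 in the controls. Without a stated strand setting, reads of the antisense gene and of TUBA1B cannot be told apart where they overlap.

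TUBA1A is the alpha-tubulin best known from developing neurons. It was the least even of the alpha members, with FPKM of 69.5 (57.0 to 83.9) in knockout 1 and 18.5 (13.5 to 24.9) in knockout 2, against 83.1 (74.5 to 92.3) in control 1 and 5.30 (3.19 to 8.28) in control 2. Library 1 of each group was high and library 2 low, and replicates of a group differed by more than their counting intervals. A log2 fold change of 0.73 ± 1.19 (SE; adjusted p = 0.960 in limma) had the opposite sign without knockout 1 (−0.21) and without control 2 (−1.20). It was 2.65 without control 1.

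TUBA4A, an alpha-tubulin whose gene lies on chromosome 2 from 219249711 to 219278170 on the minus strand, had 0 reads in every library. At these depths 0 reads allow an FPKM of up to 1.48 and 0.968 in the knockouts and 0.555 and 0.642 in the controls, taking 3 reads as the limit that a count of 0 allows. TUBA4B, an annotated gene on the other strand within the same locus, was also listed at 0 in all 4. Exons of TUBA4B and STK16 cover 18.12% of the exonic bases of TUBA4A. TUBA4A was not tested, and it gives no comparison.

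Among the beta members, TUBB was the most even. TUBB, on chromosome 6 from 30720201 to 30725426 on the plus strand, encodes the widely expressed class I beta-tubulin. Its FPKM was 721 and 612 in knockouts 1 and 2, against 502 and 629 in controls 1 and 2, so knockout 2 lay between the controls. Its log2 fold change was 0.24 ± 0.40 (SE; adjusted p = 0.963 in limma), with 0.08 to 0.40 when 1 library was left out. AL662797.1, an antisense gene over 16.02% of its exonic bases, had 294 and 37 reads in the knockouts against 132 and 107 in the controls, beside 1699 and 2203 reads of TUBB in the knockouts and 3148 and 3418 in the controls.

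TUBB4B, a widely expressed beta-tubulin that is also found in cilia, is encoded on chromosome 9 from 137241213 to 137243707 on the plus strand. It had FPKM of 248 and 465 in knockouts 1 and 2, against 506 and 437 in controls 1 and 2. Knockout 1 stood low (interval 224 to 273), while knockout 2 lay between the controls. The fitted log2 fold change of −0.47 ± 0.46 (SE; adjusted p = 0.955 in limma) was −0.02 without knockout 1 and −0.92 without knockout 2. The difference thus rests on knockout 1.

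TUBB6, the class V beta-tubulin, whose gene lies on chromosome 18 from 12307669 to 12344320 on the plus strand, had the largest difference among members above 0 in every library. Its FPKM was 36.4 (28.1 to 46.5) in knockout 1 and 163 (148 to 179) in knockout 2, against 177 (165 to 189) in control 1 and 294 (278 to 312) in control 2. Both knockouts were below both controls, but knockout 2 was close to control 1, with counting intervals that overlapped, and on the log2 scale the widest step was between the knockouts themselves. Group means were 99.7 ± 89.4 in the knockouts and 236 ± 83.1 in the controls (SD, n = 2 each). Its log2 fold change of −1.56 ± 0.67 (SE) did not pass over all genes (unadjusted p = 0.0195, adjusted p = 0.955 in limma). The unadjusted p was 0.347 in limma without the trend in eBayes (SE 1.52). In limma-voom it was 0.142, with a log2 fold change of −1.28, so an unadjusted p under 0.05 depended on the fit. In limma the log2 fold change was −0.48 without knockout 1 and −2.63 without knockout 2, so its size rests on knockout 1. In a bulk library, less transcript in every cell and fewer cells with the transcript cannot be told apart. AFG3L2, whose exons on the other strand cover 20.33% of the exonic bases of TUBB6, had FPKM of 28.2 and 133 in the knockouts against 36.8 and 67.9 in the controls.

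TUBB2A, a beta-tubulin best known from neurons, lies on chromosome 6 from 3153669 to 3157526 on the minus strand. It was listed at 0 in knockout 1 and had FPKM of 21.2 in knockout 2, against 23.5 and 17.8 in controls 1 and 2. In knockout 1, 0 reads allow an FPKM of up to 2.32 (3 reads), below the 13.3 at which the lowest interval of the other libraries starts. That limit covers only counting error. Knockout 1 had 7827 genes above 0, against 11127 in knockout 2, 8856 in control 1 and 11433 in control 2. Whether its 0 for TUBB2A reflects this lower detection was not tested. The other 3 libraries overlapped for TUBB2A. Its log2 fold change of −2.67 ± 2.00 (SE; adjusted p = 0.955 in limma) was 0.05 without knockout 1. It was −5.39 without knockout 2. TUBB2B, its near copy on chromosome 6, was listed at 0 in all 4 libraries.

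TUBB3, the class III beta-tubulin used as a neuronal marker and also found in carcinomas, was low throughout. The gene spans 89921392 to 89938761 on the plus strand of chromosome 16. Its FPKM was 5.60 and 6.52 in the knockouts, against 6.55 and 1.35 in the controls, on 9 and 16 reads in the knockouts and 28 and 5 in the controls. Control 2 was the lowest, with a counting interval (0.439 to 3.15) that overlapped that of knockout 1 (2.56 to 10.6), and the other 3 libraries overlapped each other. A log2 fold change of 0.86 ± 2.47 (SE; adjusted p = 0.991 in limma) was −0.11 without control 2, so no difference was detectable on these reads. AC092143.1, with which it shares most words, was listed at 0 in all 4 libraries. Only 20.37% of the words of TUBB3 were in no other gene, and the part of read assignment in its low level was not tested.

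**Figure D3:**
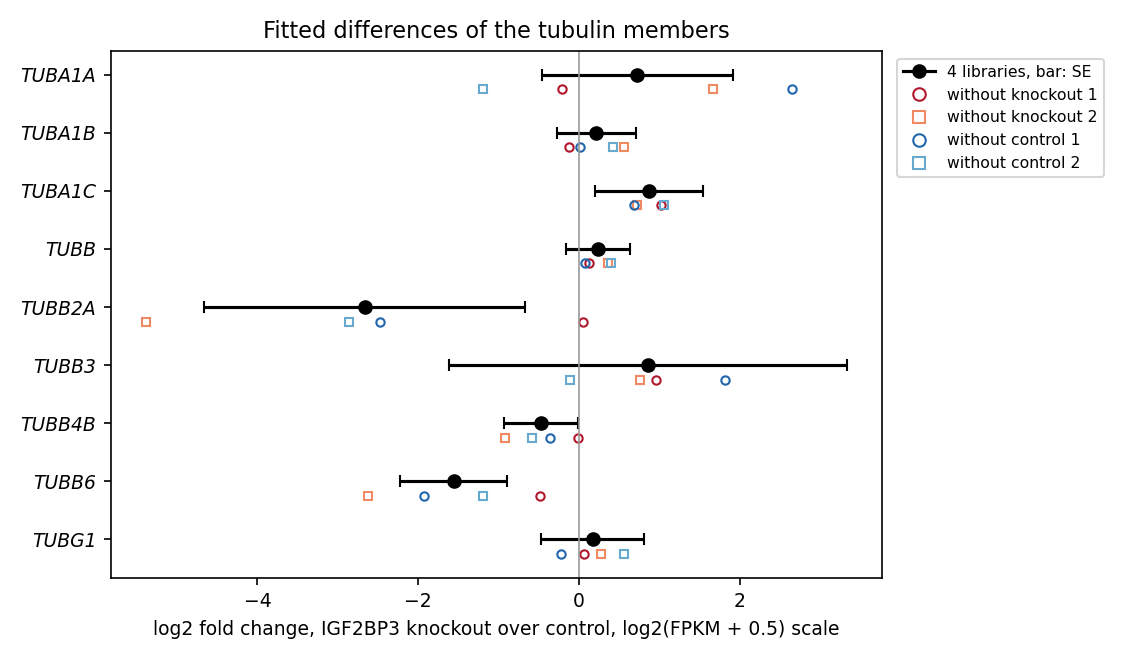
Black points with bars are the fitted log2 fold changes, IGF2BP3 knockout over control, with their SE for the 9 tested members, and open symbols are the same fit with 1 library left out. TUBA1C, TUBB, TUBB4B and TUBB6 stayed on 1 side of 0 in every fit shown, and TUBA1A, TUBA1B, TUBB2A, TUBB3 and TUBG1 did not.

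The makeup of each class was set by few genes. Of the summed alpha FPKM, TUBA1B held 65.9 and 56.0% in the knockouts against 60.7 and 74.9% in the controls, and TUBA1C held 23.7 and 40.2% against 19.8 and 23.9%. TUBA1A held 10.4 and 3.80% in the knockouts against 19.5 and 1.16% in the controls. Knockout 2 thus had the largest TUBA1C share, while knockout 1 was within the range of the controls on this scale. By recovered reads, knockout 1 (23.6%) was just above both controls (20.4 and 22.9%). On the length of the principal coding transcripts it was so too (14.5% against 12.5 and 13.9%). Per TUBA1B transcript, TUBA1C stood at 0.361 and 0.718 in the knockouts against 0.326 and 0.320 in the controls.

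Of the summed beta FPKM, TUBB held 71.3 and 48.3% in the knockouts against 41.3 and 45.6% in the controls. TUBB4B held 24.5 and 36.7% in the knockouts against 41.7 and 31.7% in the controls. TUBB6 held 3.61 and 12.9% in the knockouts against 14.6 and 21.3% in the controls. Both knockouts were above both controls for the share of TUBB and below them for that of TUBB6, and knockout 1 stood furthest out in each. Shares within a class are not independent, because a fall in any member raises the shares of the others. The FPKM of TUBB itself overlapped between groups (721 and 612 in the knockouts against 502 and 629 in the controls). Relative to TUBB, TUBB6 was at 0.0506 and 0.266 in the knockouts against 0.353 and 0.468 in the controls. TUBB2A held 0 and 1.68% in the knockouts against 1.93 and 1.29% in the controls, and TUBB3 less than 1% in every library.

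Beta over alpha FPKM was 1.51 and 2.60 in the knockouts against 2.85 and 3.01 in the controls, with knockout 1 again furthest out. Such ratios between genes depend on how reads that fit several genes were handled, which is not given. Fewer words were in no other gene for TUBA1B (52.43%) and TUBA1C (59.89%) than for TUBB (72.35%) and TUBB4B (88.37%). The ratios also depend on the length used. The deposited values use the longest annotated transcript, 3198 nt for TUBA1B, whose principal coding transcript has 1627 nt. On the length of the principal transcripts, TUBA1B would have FPKM of 864 and 537 in the knockouts against 509 and 674 in the controls. It would then be above TUBB (784) in knockout 1 and above TUBB4B by the mean over 4 libraries, so the order of levels given above turns there. Beta over alpha would be 1.04 and 1.92 in the knockouts against 2.06 and 1.97 in the controls. The choice of length changes no comparison of 1 gene between libraries.

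**Figure D4:**
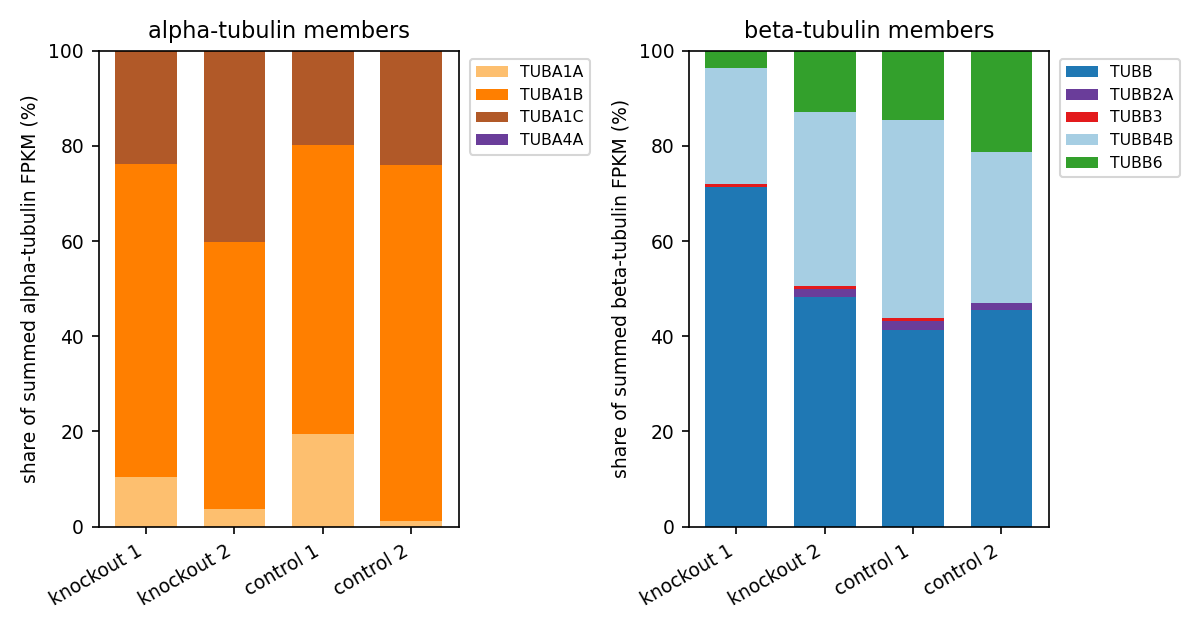
Stacked bars give each member's share (%) of the summed FPKM of the alpha members (left) and of the beta members (right) in each library. TUBA1B was the largest alpha share in all 4 libraries, TUBB reached 71.3% of the beta sum in knockout 1, and TUBB6 held 3.61% there against 14.6 and 21.3% in the controls.

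TUBG1, the gamma-tubulin used in most cells to nucleate microtubules, lies on chromosome 17 from 42609676 to 42615234 on the plus strand. It had FPKM of 171 and 148 in the knockouts, against 107 and 186 in the controls. The knockouts lay between the controls. Its log2 fold change was 0.17 ± 0.64 (SE; adjusted p = 0.991 in limma), and −0.22 without control 1. Exons of RETREG3, on the other strand, cover 5.77% of its exonic bases. Its paralog TUBG2 had FPKM of 88.1 (73.4 to 105) and 101.2 (88.4 to 115) in the knockouts, against 8.07 (5.49 to 11.5) and 19.0 (14.6 to 24.3) in the controls. Both knockouts were above both controls, as for 12.1% of all genes, and by more than counting error. The log2 fold change of 2.88 ± 1.10 (SE) did not pass over all genes (unadjusted p = 0.00868, adjusted p = 0.922 in limma). Without the trend in eBayes its unadjusted p in limma was not under 0.05. TUBG2 over TUBG1 was 0.514 and 0.683 in the knockouts against 0.0752 and 0.102 in the controls. Of the 50-base words of TUBG1, 29.07% occurred also in TUBG2, so some reads can be shared.

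How far replicates of a group differed also varied among the members. The mean gap between replicates on the log2(FPKM + 0.5) scale was 0.28 for TUBB, 0.34 for TUBA1C, 0.50 for TUBG1, 0.55 for TUBA1B and 0.56 for TUBB4B. It was 1.44 for TUBB6, 2.86 for TUBA1A and 2.92 for TUBB2A. The median over the 9 members was 0.56, against 2.11 over all genes tested, but abundant genes vary less. Among the 105 genes within a factor of 2 of its mean level, 82.86% had a wider gap than TUBB, and among 571 such genes 21.02% had a wider gap than TUBB6.

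Of 12 other tubulin genes, 8 were at 0 in all 4 libraries: TUBA3C, TUBA3D, TUBA3E, TUBA8, TUBAL3, TUBB1, TUBB2B and TUBB8. TUBE1 had at most 2.67 and was not tested. TUBG2, TUBD1 and TUBB4A were tested, and none passed, with 1 (TUBG2) at an unadjusted p under 0.05 in limma and 0 in limma-voom. TUBD1, a delta-tubulin of centrioles, had FPKM of 16.3 and 9.07 in the knockouts against 2.23 and 0.644 in the controls, on 33 and 28 reads in the knockouts and 12 and 3 in the controls (log2 fold change 2.84 ± 2.49 SE, adjusted p = 0.955 in limma). Of 38 tubulin pseudogenes, 35 were at 0 in all 4 libraries, and the other 3 held 2 and 3 reads in the knockouts against 9 and 15 in the controls. TUBBP1 accounted for all of the reads in the controls. The 2 tested were TUBBP1 (log2 fold change −1.86 ± 2.82 SE) and TUBBP2 (2.55 ± 2.57 SE, on 1 read in each knockout). Neither passed (adjusted p = 0.955 in limma for each).

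Genes that fold tubulin, modify it or build on it gave no calls. In limma, 0 genes passed in either direction among 4 tested folding cofactors, 8 subunits of the TRiC chaperonin, 5 of prefoldin, 7 genes of tubulin mRNA autoregulation, 12 of the gamma-tubulin ring complex, 12 of tubulin modification and 12 microtubule-associated proteins. At an unadjusted p under 0.05 there were TBCA and CCT8, a share near the 3.91% of all genes tested. Limma-voom on recovered reads also called none, with TTLL3 alone at an unadjusted p under 0.05.

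TBCA, which takes up beta-tubulin after its release from the chaperonin, had the largest difference, with FPKM of 117 and 24.9 in the knockouts against 1.41 and 2.55 in the controls. Both knockouts were above both controls, as for 12.1% of all genes, and the log2 fold change of 4.501 ± 1.735 (SE) did not pass (adjusted p = 0.940 in limma). TBCD, a later cofactor of heterodimer assembly, had 1.55 and 63.0 in the knockouts against 54.9 and 61.2 in the controls, so only knockout 1 stood apart. The 4 cofactors tested were 2 above and 2 below 0, with a median log2 fold change of −0.43. For TBCE no row was matched.

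The TRiC chaperonin, which folds newly made tubulin and actin, had 3 subunits above 0 and 5 below, with a median log2 fold change of −0.55. CCT8 had FPKM of 283 and 134 in the knockouts against 39.4 and 129 in the controls (log2 fold change 1.44 ± 0.70 SE, adjusted p = 0.955 in limma). CCT6A had 46.2 and 86.3 in the knockouts against 169 and 112 in the controls (−1.12 ± 0.76 SE, adjusted p = 0.955 in limma). Both knockouts lay above both controls for 1 of 8 subunits (12.1% of all genes) and below for 3 of 8 (14.4% of all genes). Of 5 prefoldin genes, whose product hands nascent tubulin to TRiC, 2 were above and 3 below 0, with a median of −0.13. PFDN2 had FPKM of 171 and 207 in the knockouts against 200.2 and 255 in the controls, and VBP1 had 55.5 and 6.70 against 4.94 and 32.3, so the groups overlapped for both.

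In the autoregulation list, TTC5, named after its values were seen, had FPKM of 27.3 and 17.0 in the knockouts against 7.66 and 13.2 in the controls. Both knockouts were above both controls, as for 12.1% of all genes, and the log2 fold change of 1.06 ± 1.54 (SE) did not pass (adjusted p = 0.955 in limma). SCAPER, which links TTC5 to the deadenylase that removes the polyA tail, was listed at 0 in knockout 1 and had 0.445 in knockout 2, against 8.76 and 6.98 in the controls. Its log2 fold change of −3.60 ± 2.83 (SE) did not pass (adjusted p = 0.955 in limma). CNOT11, a subunit of that deadenylase complex, had 5.69 and 27.0 in the knockouts against 62.5 and 21.2 in the controls, which overlapped. The 7 genes split 4 above and 3 below 0, with a median of 0.01.

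The gamma-tubulin ring complex, which holds TUBG1, had 5 genes above 0 and 7 below, with a median log2 fold change of −0.65. MZT2B, a small subunit, had FPKM of 15.8 and 61.4 in the knockouts against 178 and 45.8 in the controls (−1.52 ± 0.93 SE, adjusted p = 0.955 in limma). TUBGCP4, a core subunit, had 4.71 and 2.61 in the knockouts against 36.1 and 11.8 in the controls, with both knockouts below both controls (−2.40 ± 1.91 SE, adjusted p = 0.955 in limma). CDK5RAP2, an anchor of the complex named after its values were seen, was even, at 40.9 and 42.5 in the knockouts against 37.4 and 37.1 in the controls. Both knockouts lay above both controls for 2 of 12 genes, CDK5RAP2 among them (12.1% of all genes). They lay below for 1 of 12, TUBGCP4 (14.4% of all genes).

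Of 18 genes for tubulin modification, 12 were tested, 6 above and 6 below 0, with a median of −0.50. TTLL3, a glycylase, was listed at 0 in knockout 1 and had FPKM 0.916 in knockout 2, against 17.0 and 9.21 in the controls (−3.95 ± 2.74 SE, adjusted p = 0.955 in limma). TTLL12, a tubulin ligase-like protein, had 49.1 and 18.1 in the knockouts against 0.956 and 43.4 in the controls. Among microtubule-associated proteins, 5 were above and 7 below 0, with a median of −0.22. STMN1, which binds free heterodimers, had 43.5 and 58.6 in the knockouts against 50.8 and 159 in the controls, and MAP1S, which binds microtubules, had 0.721 and 20.8 in the knockouts against 29.9 and 15.6 in the controls. Neither passed.

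**Figure D5:**
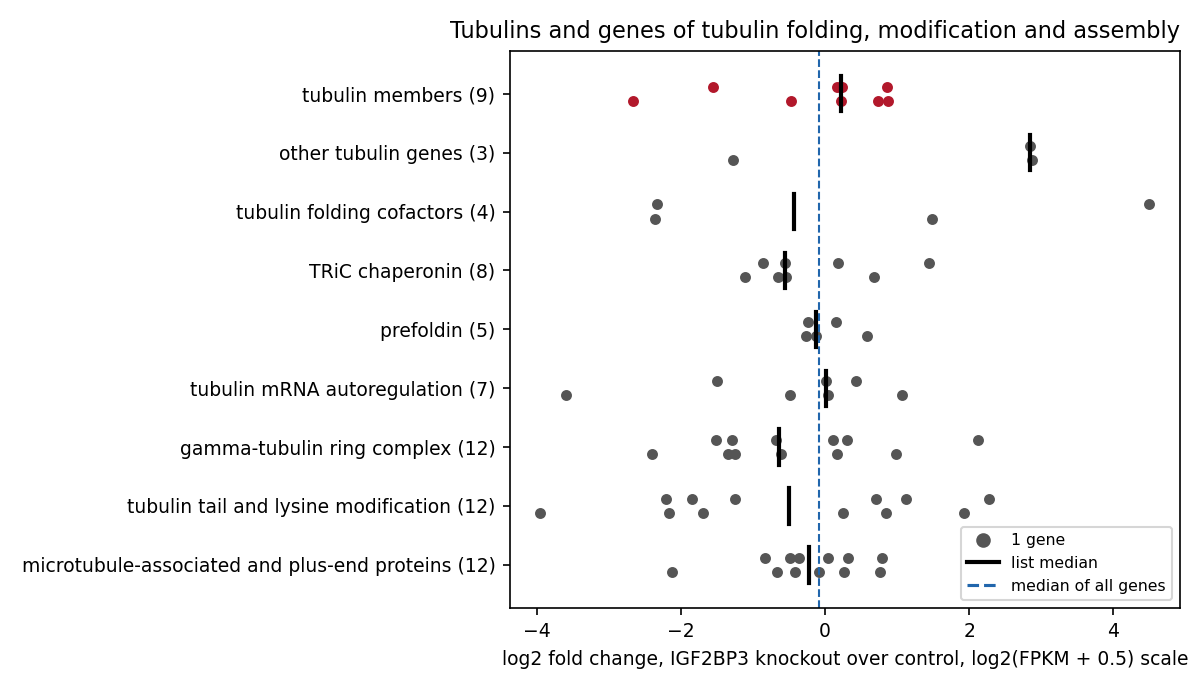
Each dot is the fitted log2 fold change, IGF2BP3 knockout over control, of 1 tested gene, by list (number tested in parentheses), with the list median as a black bar and the median of all genes tested (−0.08) dashed. The 9 tubulin members ranged from −2.67 to 0.87 around a median of 0.22, and no gene drawn passed the threshold.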

How the data were processed

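The authors deposited 1 table of FPKM per library, with reads counted per gene by HTSeq, per the names of the tables, on hg38, per the submitters' processing notes. The sources used here give no aligner, annotation release, strand setting or duplicate removal. The MeRIP-seq named in the study's design was not analysed here. Names, positions and transcripts came from GENCODE 29 and matched 58039 of 58302 genes.

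FPKM times the length of the longest transcript gave whole multiples of 1 step (tolerance 0.0001) for 96.46 to 96.7% of genes above 0, which gave reads and depths. The fit was limma 3.58.1 in R 4.3.3 (eBayes with trend) on log2(FPKM + 0.5) over genes whose mean FPKM reached 1, knockout against control, two-sided, Benjamini-Hochberg adjusted, threshold 0.05. Fold changes on this scale understate those of low genes. Fits were checked on simulated data with a fixed spread between replicates. That spread was not estimated from these libraries, so the check does not give the power of the fit here. Sequence identity used Biopython 1.88 (global alignment), and tables and figures Python 3.11.15. Tail sequences of the alpha members are not reported here.

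Members and lists were chosen with earlier results of these data known. Named are all 10 members and, of each list, genes past the threshold or otherwise the 2 with the smallest p. Alternatives covered pseudocount, filter, scaling, moderation, replicate block, libraries left out, recovered reads and transcript length.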

Additional observations from a re-analysis of the deposited data

How the results depend on the processing

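No tubulin passed in any of 14 alternatives, among them a pseudocount of 0.1 or 1, another filter, median-ratio and quantile scaling, limma-voom on recovered reads (chosen after seeing the data) and each library left out. The 10 genes past the threshold over all genes became 0 with no trend in eBayes (415 had an unadjusted p under 0.05) and 18 at an adjusted p of 0.1. With any 1 of the 4 libraries left out 0 genes passed in limma (752 to 1025 at an unadjusted p under 0.05), limma-voom calling 9 with all 4. Such fits take the lone library to vary as the other group does, and their median over all genes ran from −0.56 to 0.34. Direction changed only with a library left out: without knockout 1, TUBA1A had −0.21, TUBA1B −0.13 and TUBB2A 0.054, without control 2, TUBA1A had −1.20 and TUBB3 −0.11, and without control 1, TUBG1 had −0.22. Lowest and highest values with 1 library left out were −1.20 and 2.65 for TUBA1A, −0.13 and 0.56 for TUBA1B, −5.39 and 0.054 for TUBB2A, −0.11 and 1.82 for TUBB3, and −0.22 and 0.57 for TUBG1. The cause was not tested. The members' median ran from −0.11 to 0.36 in those fits. With the replicate number as a block, 14 genes and 0 tubulins passed. Gene by gene, same-numbered libraries did not deviate together (r = −0.004 across 11463 genes, which are not independent). In genes above 0 they were alike, with 7827 in knockout 1 and 8856 in control 1 against 11127 in knockout 2 and 11433 in control 2. What the replicate number pairs is not known. On the principal transcript length (chosen after seeing the data), TUBA1B held 75.3% of alpha FPKM in knockouts and 80.3% in controls, and TUBA1C 20.3 and 13.2%. By recovered reads, TUBB held 51.9% and TUBB2A 1.06% of the beta members in controls, and TUBB3 0.413% in knockouts. The planned quasi-likelihood count test was not run, because the deposited unit is FPKM. Low read numbers limit TUBB3, on 5 to 28 reads a library.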
